A study of Mus musculus with 31 samples.

Results

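The F1 hybrid called PWDfXCASTm, from a PWD/PhJ mother and a CAST/EiJ father, was compared with the inbred strains of both its parents, PWD (PWD/PhJ on both sides) and CAST (CAST/EiJ on both sides). What was compared are the places where meiosis breaks its DNA, called hotspots, as listed for 1 testis library of each of these 3 genotypes. Members were chosen by rule: all hotspots on the 19 autosomes of the 3 lists, 18270 in the hybrid, 13501 in PWD and 14282 in CAST, which is 46053 of the 392225 autosomal hotspots in the 26 lists of the series. Hotspots of separate lists were matched when their centres lay less than 400 bp apart. The whole series has 31 samples, of which 26 have a hotspot list (6 inbred strains, 19 crosses and 1 Prdm9 knockout), each of a different strain or cross direction. Some crosses were made in both directions, such as B6fXCASTm and CASTfXB6m, and such pairs carry the same autosomes. All 3 libraries are from testis and were made with an antibody to DMC1. The labels name no agent, transgene or age, and they do not say how many animals gave a library. PWD/PhJ and CAST/EiJ are wild-derived inbred strains of different mouse subspecies.

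In mice, breaks are placed by PRDM9, a histone methyltransferase that finds its sites through an array of zinc fingers, and alleles that differ in the fingers mark different sites. The topoisomerase-like enzyme SPO11 makes the break, the ends are cut back to single strands, and the recombinase DMC1 coats them, so sequencing of DMC1-bound single-stranded DNA (SSDS) maps where breaks were. An F1 male carries the PRDM9 alleles and the autosomes of both parents, so the comparison asks which parental hotspots remain in use in such a male, and how strongly. The strength of a hotspot is a score set by the authors. Here it is used only within a list, as a rank (1 is the strongest), as a percentile from 0 to 100 (100 is the strongest), or as a share of the summed strength.

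With 1 library per genotype, differences between the hybrid and its parents have no replicate check. The intervals given are exact 95% Clopper-Pearson intervals and cover counting error only. Read depth is unknown, so list lengths are not numbers of breaks, and the hybrid list is longer than those of the other 18 crosses, which hold 9748 to 17123 autosomal hotspots. The series text records that a sample was removed for a wrong label as a cross of CAST with 13R, a strain of the B10 background. The accession named there carries the label CAST in the records used here, and all CAST values rest on that label. Of the 5000 strongest CAST hotspots, 96.9% to 98.3% were found in the 5 crosses with a CAST parent and 0.38% to 14.6% in the other 14. The 3 crosses of 13R with B6 or C3H held 0.38% to 0.64% of them. For PWD the same shares were 37.8% to 82.0% in 6 crosses and 0.72% to 20.4% in the other 13. The lowest of the 6, 37.8%, was that of PWDfX13Rm, and the hybrid described here held 61.3%.

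Few hybrid hotspots have their centre in a stretch of sequence held by the reference tables used here, which give promoters only. The 250 bases before the RefSeq start (build GRCm38.p6, whose primary chromosomes are those of mm10) are shown for 1 gene of each class of hybrid hotspot described further on, so that the reader can see where a break centre lies in a real promoter. The 21 bases in capitals are those around the hotspot's centre, and each sequence runs 5′ to 3′ on the strand of the gene.

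H2-M2 is a class Ib gene of the major histocompatibility complex, and its window is chr17:37483555-37483804, minus strand. The hotspot was found in both parents. Padi1 encodes a peptidylarginine deiminase, its window is chr4:140845779-140846028, minus strand, and the hotspot was found in PWD only. Tssk2 encodes a testis-specific serine kinase, its window is chr16:17898387-17898636, plus strand, and the hotspot was found in CAST only. Prr18 has the window chr17:8340156-8340405, plus strand, and its hotspot was found in neither parent.
H2-M2: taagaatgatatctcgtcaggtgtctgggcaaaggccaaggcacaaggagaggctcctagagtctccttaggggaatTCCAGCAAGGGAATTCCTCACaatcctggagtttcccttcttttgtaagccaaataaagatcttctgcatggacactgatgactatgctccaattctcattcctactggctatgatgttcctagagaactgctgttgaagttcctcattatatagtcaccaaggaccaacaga
Padi1: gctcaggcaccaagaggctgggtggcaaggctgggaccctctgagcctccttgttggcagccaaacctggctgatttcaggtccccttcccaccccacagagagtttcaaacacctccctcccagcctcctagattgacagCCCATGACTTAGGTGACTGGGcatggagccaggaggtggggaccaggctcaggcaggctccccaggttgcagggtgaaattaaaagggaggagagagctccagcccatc
Tssk2: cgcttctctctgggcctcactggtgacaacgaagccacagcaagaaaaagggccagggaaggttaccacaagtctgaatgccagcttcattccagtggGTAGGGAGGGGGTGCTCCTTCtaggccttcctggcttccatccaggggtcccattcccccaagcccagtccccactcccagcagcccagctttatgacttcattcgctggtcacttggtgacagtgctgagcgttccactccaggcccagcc
Prr18: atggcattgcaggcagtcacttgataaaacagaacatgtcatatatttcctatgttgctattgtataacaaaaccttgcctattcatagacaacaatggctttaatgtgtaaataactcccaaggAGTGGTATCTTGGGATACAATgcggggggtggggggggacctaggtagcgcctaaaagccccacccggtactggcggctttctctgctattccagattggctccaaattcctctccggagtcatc

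The hotspot at H2-M2 stood at percentile 49.7 in the hybrid, 85.9 in PWD and 49.7 in CAST, so its place in the hybrid was level with that in CAST and lower than in PWD. The hotspot at Padi1 ranked 7910 in the hybrid and 2856 in PWD. The hotspot at Tssk2 ranked 1412 in the hybrid and 6431 in CAST, and the hotspot at Prr18 ranked 15010 in the hybrid. These windows had 44.8%, 60%, 58.8% and 46.4% G and C and 1, 0, 4 and 5 CG dinucleotides in the order shown. The median over 20085 promoter windows of that length was 56% and 10 CG, so all 4 hold fewer CG than a typical promoter. Centres inside a promoter window were rare in every class: 2 of 1591 hybrid hotspots found in both parents, 3 of 3514 found in PWD only, 10 of 8868 found in CAST only and 7 of 4297 found in neither.

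Parental hotspots had very different fates in the hybrid. Nearly all hotspots that PWD and CAST share were found in it, most CAST-only hotspots were found, and most PWD-only hotspots were not. PWD and CAST shared 1603 hotspots, 11.9% of the PWD list and 11.2% of the CAST list. Over all PWD hotspots, 37.8% had a hybrid hotspot, and over all CAST hotspots 73.2% had one. Of the shared hotspots, 1569 of 1603 were found as placed in PWD (97.9%, interval 97.0% to 98.5%) and 1568 as placed in CAST (97.8%, 97.0% to 98.5%). Of the hotspots of PWD that CAST lacks, 3536 of 11898 were found (29.7%, 28.9% to 30.5%). Of those of CAST that PWD lacks, 8891 of 12679 were found (70.1%, 69.3% to 70.9%). The intervals of the 3 classes do not overlap, but they cover counting error only, and the differences have no replicate check. The shares also moved well outside these intervals in the alternative settings given further on. There the PWD-only share ran from 12.7% to 44.5%, the CAST-only share from 48.8% to 91.4% and the shared class, as placed in PWD, from 91.4% to 98.7%. The order of the 3 classes was the same in every setting. Weighted by parental strength, the PWD-only hotspots found held 47.8% of the strength of their class and the CAST-only ones 87.1%.

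The 400 bp limit was crossed by few pairs. Distances from a PWD hotspot to the nearest hybrid centre were under 100 bp for 3680, from 300 bp to under 400 bp for 94, and from 400 bp to under 500 bp for 55. For CAST the same numbers were 8225, 118 and 46. The pairs just inside the limit had median hybrid percentiles of 42.2 (PWD) and 48.6 (CAST), and those just outside had 55.1 and 38.8. Matched hybrid and parental centres lay a median of 58 bp apart for PWD-only and 45 bp apart for CAST-only hotspots.

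The share found followed parental strength in the single-parent classes and hardly moved with it in the shared class. PWD hotspots were cut into 10 strength deciles of equal size (10 is the strongest), and the share of PWD-only hotspots found ran from 7.66% in the weakest decile to 81.7% in the strongest. The share of shared hotspots found in the same deciles lay between 94.3% and 99.6%. CAST-only hotspots ran from 21.5% in the weakest decile of CAST to 98.0% in the strongest, and stood at 90.8% or more from decile 6 on. The shared hotspots of CAST lay between 93.9% and 100%. In the weakest decile of PWD the shared hotspots were found in 67 of 71 cases, and the PWD-only ones in 98 of 1279. The hotspots that were found had a median parental percentile of 76.2 in the PWD-only class, against 38.7 for those not found, and of 62.4 against 18.95 in the CAST-only class.

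**Figure D1:**
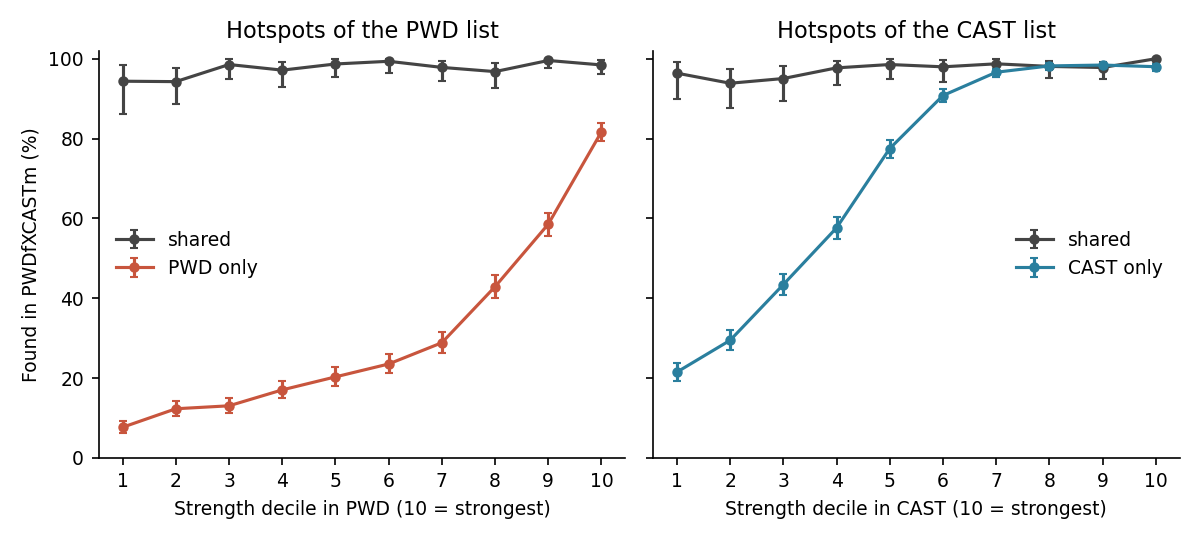
Percent of parental hotspots with a PWDfXCASTm hotspot under 400 bp away (vertical axis), by strength decile in the PWD list (left) and in the CAST list (right), where 10 is the strongest; points are shares and bars are exact 95% intervals for counting error. Shared hotspots (dark) stay above 93% in all deciles, PWD-only hotspots (red) run from 7.66% to 81.7%, and CAST-only hotspots (blue) from 21.5% to 98.0%.

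Most of the strongest parental hotspots were found in the hybrid, and fewer of PWD's than of CAST's stood near its top. Of the 100 strongest PWD hotspots, 76 were PWD only, 72 of these were found, none was among the 100 strongest of the hybrid, and the best reached a hybrid percentile of 99.4. The other 24 were shared, 23 were found, and 2 were among the 100 strongest of the hybrid, the best at percentile 99.8. Of the 100 strongest CAST hotspots, 85 were CAST only, 83 were found and 13 were among the 100 strongest of the hybrid. Among the 1000 strongest of each parent, 682 of 807 PWD-only hotspots (84.5%) were found with 40 in the hybrid's 1000 strongest. Of the CAST-only ones 764 of 783 (97.6%) were found with 216 in the hybrid's 1000 strongest. Of the 193 shared hotspots among the 1000 strongest of PWD, 190 were found and 53 were in the hybrid's 1000 strongest. All 217 shared hotspots among the 1000 strongest of CAST were found, and 103 of them were in the hybrid's 1000 strongest.

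Hotspots also stood at other places in the order of strength than in the parents. Shared hotspots stood higher in the hybrid than in either parent: their median percentile was 61.5 in PWD and 77.0 in the hybrid, and 65.1 in CAST and 77.1 in the hybrid. PWD-only hotspots that were found went the other way, from a median percentile of 76.2 (rank 3214) in PWD to 39.6 (rank 11044) in the hybrid. CAST-only hotspots moved less, from 62.4 (rank 5372) to 50.6 (rank 9030). The percentile was higher in the hybrid for 64.3% of the shared hotspots against PWD and 66.0% against CAST, but for only 22.3% of the PWD-only and 23.0% of the CAST-only hotspots found. A percentile depends on what else is in a list, so a lower percentile is not a lower number of breaks.

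The order among CAST-only hotspots was kept and that among PWD-only hotspots mostly was not. Across 8891 CAST-only hotspots Spearman's rho between CAST and hybrid percentile was 0.702. Across 3536 PWD-only hotspots it was 0.143. These correlations are across hotspots of the same pair of libraries, which are not replicates. The median hybrid percentile of PWD-only hotspots stayed between 31.2 and 39.6 over the 9 weaker deciles of PWD and was 50.8 in the strongest decile. Over the deciles of CAST, that of CAST-only hotspots ran from 19.3 to 87.9.

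Seen from the hybrid, 13973 of its 18270 hotspots (76.5%) lay at a hotspot of at least 1 parent. CAST-only sites were the largest class with 8868 hotspots (48.5%), followed by 4297 at neither parent's hotspots (23.5%), 3514 PWD-only (19.2%) and 1591 at hotspots of both (8.71%). By summed strength the order was CAST only 47.0%, neither 23.1%, PWD only 15.5% and both 14.5%. Sites of both parents therefore held a larger share of strength than of number, and PWD-only sites a smaller one. Among the 12382 single-parent hotspots, 71.6% were CAST only and held 75.2% of that strength. Median hybrid percentiles were 77.2 for sites of both parents, 50.5 for CAST only, 44.8 for neither and 39.3 for PWD only. Sites of both parents were also wider, with a median of 2892 bp against 1780 bp to 2048 bp in the other classes, and width went with strength in all classes.

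The make-up of the hybrid list differed with strength mainly through sites of both parents and PWD-only sites. From the weakest to the strongest decile of the hybrid, sites of both parents made up 0.383% and 20.3%, and PWD-only sites 25.9% and 12.9%. CAST-only sites were 42.0% of the weakest and 42.1% of the strongest decile, and reached 52.2% in between. Sites of neither parent were 31.7% and 24.7%, with a low of 19.6%. Among the 100 strongest hybrid hotspots 39 were CAST only, 36 neither, 15 both and 10 PWD only. Among the 1000 strongest the numbers were 402, 274, 187 and 137.

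**Figure D2:**
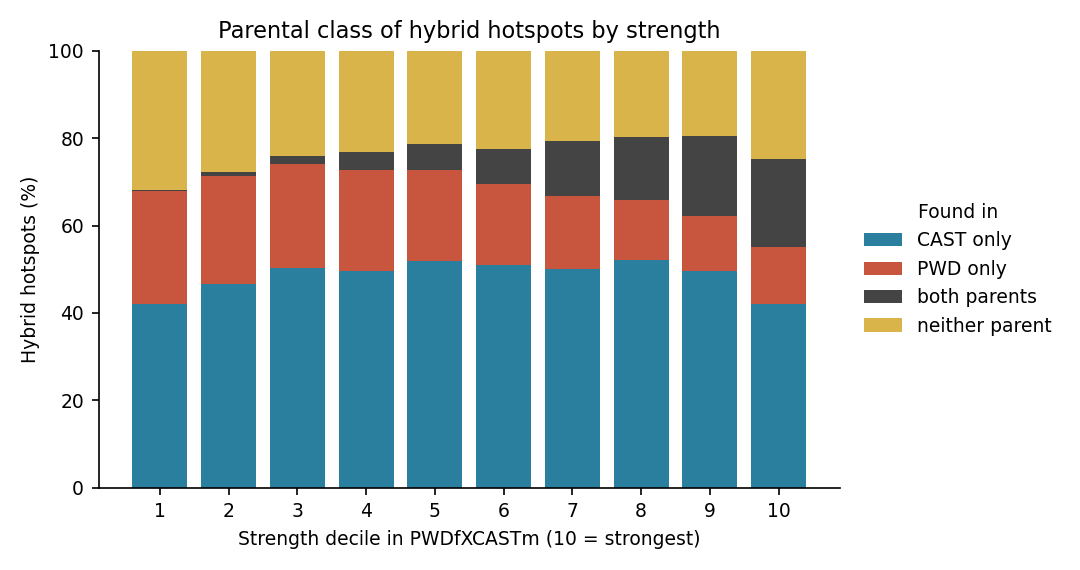
Percent of PWDfXCASTm hotspots (vertical axis) found in CAST only, PWD only, both parents or neither, by strength decile in the hybrid (horizontal axis, 10 is the strongest). The share at sites of both parents runs from 0.383% to 20.3% and that of PWD-only sites from 25.9% to 12.9%, while CAST-only sites make up 42.0% and 42.1% of the end deciles.

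Single hotspots named here were picked as the strongest of their class and do not show its range (coordinates are mm10, counted from 1). The strongest hotspot of the hybrid lay inside Bach2, a transcriptional repressor of lymphocytes, at chr4:32571272-32576399, and ranked 2 in CAST. The hybrid's rank 2 lay near Tpd52 at chr3:9026284-9030995 and was rank 1 in CAST. Both are CAST only, but the Bach2 hotspot was also found in 4 PWD crosses that lack CAST, at ranks 139 to 360, while the Tpd52 hotspot was found in none of the PWD crosses without CAST. The third CAST-only hotspot behaved otherwise: at Gpam, a mitochondrial glycerol-3-phosphate acyltransferase, chr19:55090233-55094420 ranked 9 in the hybrid and 9266 in CAST. In PWDfXMOLm, a cross without CAST, the Gpam hotspot ranked 10.

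The strongest PWD-only hotspot lay inside Fndc3b at chr3:27414856-27418757 and ranked 7 in the hybrid against 3094 in PWD. It was found in all 4 other CAST crosses, at ranks 34 (B6fXCASTm), 38 (C3HfXCASTm), 17 (CASTfXB6m) and 4 (CASTfXMOLm), and in PWDfXB6m at rank 10844, though the CAST list has no centre within 59131 bp of it. The next, near Tmprss15 (enteropeptidase) at chr16:79846923-79851318, ranked 17 in the hybrid and 1305 in PWD, was in all 5 other PWD crosses and in no other CAST cross. The third, near Asb17 at chr3:153812262-153816109, ranked 24 in the hybrid and 8259 in PWD. It was found in the 4 other CAST crosses at ranks 3319 to 4525 and in no other PWD cross. Of these 3 PWD-only sites, 2 were therefore present in crosses that have CAST but not PWD.

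Sites of both parents were led by hotspots that were not at the top of either parent. At Prrc1, chr18:57389474-57394811, the rank was 4 in the hybrid, 220 in PWD and 6080 in CAST. At Fam185a, chr5:21465401-21469556, it was 8 in the hybrid, 4000 in PWD and 4128 in CAST. Near Mex3c, chr18:73451494-73455929, it was 14 in the hybrid, 4300 in PWD and 7607 in CAST. All 3 ranked higher in the hybrid than in both parents, but they were picked for their rank in the hybrid, which favours such cases. Over the class, 602 of 1591 (37.8%) had a hybrid percentile above both parents'. The strongest shared hotspot of PWD was inside Celf2, which encodes an RNA-binding splicing regulator, at rank 4 in PWD, 11624 in CAST and 455 in the hybrid. The strongest shared hotspot of CAST was inside Usp6nl, a GTPase-activating protein, at rank 14 in CAST, 4598 in PWD and 74 in the hybrid.

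Shared hotspots ranked in the hybrid more as they did in CAST than as in PWD. Across the 1591 hybrid hotspots with a match in both, rho with the hybrid percentile was 0.670 for CAST, 0.374 for PWD and 0.680 for the mean of both, while rho between PWD and CAST was 0.114. Where both parental percentiles were 50 or more (655 hotspots) the median hybrid percentile was 86.9. Where CAST alone was that high (360) it was 76.7, where PWD alone was (319) it was 63.1, and where neither was (257) it was 46.8. The hybrid percentile was above both parents' for 602, between them for 875 and below both for 114. The PWD and CAST centres of these hotspots lay a median of 64 bp apart, and 88.4% lay less than 200 bp apart.

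**Figure D3:**
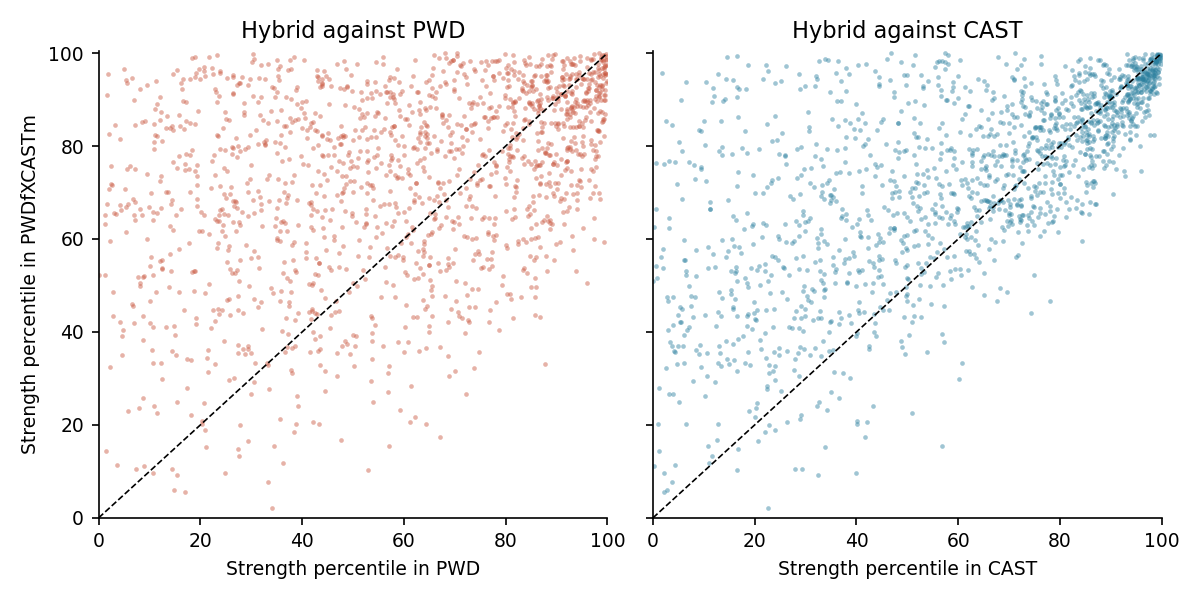
Strength percentile of the 1591 hybrid hotspots with a match in both parents (vertical axis, 100 is the strongest) against their percentile in PWD (left) and in CAST (right); each point is a hotspot and the dashed line marks equal percentiles. Points follow the CAST axis (rho 0.670) more closely than the PWD axis (rho 0.374), and 602 lie above the line in both panels.

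Only 34 shared hotspots, as placed in PWD, had no hybrid hotspot, and 15 of these were also in no other cross of PWD or CAST. The strongest lay inside Prdm9 itself, the gene of the methyltransferase, at chr17:15562242-15564529, rank 31 in PWD and 2351 in CAST. It was found in C3HfXCASTm (rank 321), in B6fXPWDm (rank 465) and in 1 cross with neither parent. The next were inside Zmynd11, a reader of histone methylation (rank 344 in PWD, 9452 in CAST), and inside Insc, an adaptor of spindle orientation (rank 729 in PWD, 3137 in CAST). The Insc hotspot was found in all 5 other PWD crosses, in 3 of the 4 other CAST crosses and in 3 crosses with neither parent. As placed in CAST, the strongest without a hybrid hotspot were inside D7Ertd443e, Atf7ip and Rabgef1, at CAST ranks 1814, 2184 and 2195. None of these 3 was among the 1000 strongest of CAST.

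Of the strongest decile of each parent, 200 of 1093 PWD-only hotspots and 23 of 1152 CAST-only hotspots had no hybrid hotspot. Those of PWD were mostly present in 4 of the 5 other PWD crosses, with values given further on, and the 3 strongest of each parent are described here as single cases. In PWD the first lay near Smim13, chr13:41284037-41288576, at rank 17. It was found in all 5 other PWD crosses at ranks 141 to 382 and in 1 cross with neither parent. A CAST centre lies 1201 bp from it, outside the 400 bp limit. The second lay near Chchd3, a mitochondrial inner membrane protein, at rank 50, with a CAST centre 1788 bp away. All 5 other PWD crosses held it, at ranks 857 to 2198. The third, inside Mlh3 at chr12:85264911-85270380 and rank 81, was in no other cross of PWD or CAST but in 1 cross with neither parent. In CAST the first lay inside Cers5, a ceramide synthase, at rank 3, and was found elsewhere only in C3HfXCASTm, at rank 2. The second, inside Arfgef1, ranked 96 and was in no cross, and the third, inside Dnajc19, ranked 111 and was in the 4 other CAST crosses at ranks 149 to 385.

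The other crosses with 1 of the parents were used to see how far these fates are those of any cross of PWD or of CAST. With 1 library of this hybrid, its own value cannot be tested against theirs. Over all PWD hotspots, B6fXPWDm held 34.4%, PWDfX13Rm 18.5%, PWDfXB6m 46.2%, PWDfXC3Hm 43.8% and PWDfXMOLm 44.8%. Over all CAST hotspots, B6fXCASTm held 59%, C3HfXCASTm 54.3%, CASTfXB6m 62% and CASTfXMOLm 58.8%. PWD-only hotspots were found at 32.4%, 16.7%, 43.98%, 41.7% and 43.8% in the PWD crosses in the same order, and the 29.7% of the hybrid lies inside that range. CAST-only hotspots were found at 57.2%, 52.5%, 60.3% and 56.4% in the CAST crosses, below the 70.1% of the hybrid. With the hybrid list reduced to the 13501 strongest, the length of the PWD list, the hybrid held 19.8% of the PWD-only, 52.7% of the CAST-only and 95.1% of the shared hotspots, so the CAST-only value then lay within the range of the other crosses.

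Shared hotspots were found more often in the hybrid than in any of the other crosses, full list or reduced. As placed in PWD, they were found at 72.4% (B6fXCASTm), 68.3% (C3HfXCASTm), 75.2% (CASTfXB6m) and 78.3% (CASTfXMOLm) in the CAST crosses. In the PWD crosses they were found at 49.5% (B6fXPWDm), 32.0% (PWDfX13Rm), 62.3% (PWDfXB6m), 59.1% (PWDfXC3Hm) and 52.1% (PWDfXMOLm). Over whole lists, CAST crosses held 54.3% to 62% of CAST hotspots and PWD crosses 18.5% to 46.2% of PWD hotspots. The order is therefore not particular to shared hotspots. For shared hotspots, the groups of CAST and PWD crosses do not overlap. Their means were 73.5% ± 4.24 (SD, n = 4) and 51.0% ± 11.8 (SD, n = 5), a difference of 22.5 percentage points with an adjusted p of 0.0212 in a two-sided exact permutation test over crosses (Benjamini-Hochberg over 4 tests). Without the 2 crosses with a MOL parent the difference was 21.2 points and did not pass. Its adjusted p was 0.0762, and 0.0571 before adjustment (exact permutation test). Several crosses have a parent in common, and B6fXCASTm with CASTfXB6m and B6fXPWDm with PWDfXB6m are the same cross in both directions. The test does not take this into account and counts each direction as a separate unit, so its p-value may be too small.

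**Figure D4:**
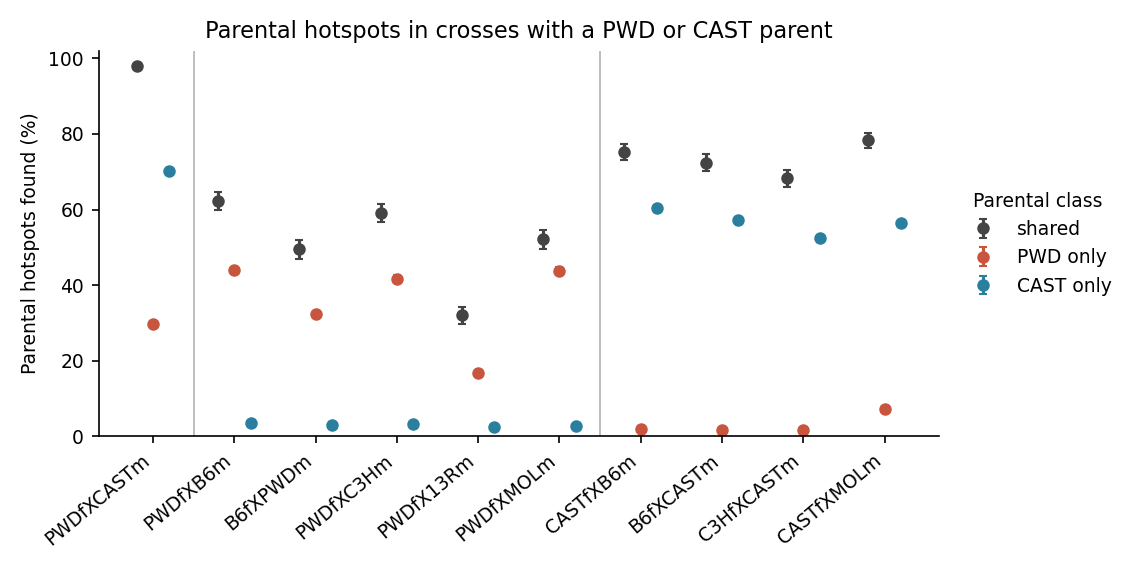
Percent of shared (dark), PWD-only (red) and CAST-only (blue) parental hotspots found (vertical axis) in PWDfXCASTm and in the 5 other crosses with a PWD and the 4 with a CAST parent; bars are exact 95% intervals for counting error. The shared class stands at 97.9% in the hybrid and between 32.0% and 78.3% in the others.

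Order among PWD-only hotspots was also loose in the other PWD crosses. Spearman's rho with PWD percentile was 0.269 in B6fXPWDm, 0.0794 in PWDfX13Rm, 0.383 in PWDfXB6m, 0.380 in PWDfXC3Hm and 0.270 in PWDfXMOLm, against 0.143 in the hybrid. For CAST-only hotspots rho was 0.608 to 0.691 in the CAST crosses and 0.702 in the hybrid. Of the PWD-only hotspots in the strongest decile of PWD, the hybrid held 81.7% at a median percentile of 50.8. PWDfX13Rm held 64.9% at 43.7 and the other 4 PWD crosses held 89.1% to 95.6% at 62.0 to 70.1. The hybrid and PWDfX13Rm thus stood below the other 4 on both measures.

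Over each whole class, single-parent hotspots that the hybrid lacks were found less often in the other crosses of that parent than those it holds. PWD-only hotspots found in the hybrid were found in each of the 5 other PWD crosses at 46.9% to 80.2%, and those not found in the hybrid at 3.95% to 30.8%. The strong ones were not scarce there: the 200 PWD-only hotspots of PWD's strongest decile that the hybrid lacks were found at 64% in B6fXPWDm, 85% in PWDfXB6m, 80.5% in PWDfXC3Hm, 79.5% in PWDfXMOLm and 23% in PWDfX13Rm. The 893 of that decile that the hybrid holds were found at 94.7%, 98.0%, 97.6%, 95.9% and 74.2% in the same order. For CAST-only hotspots the ranges in the 4 CAST crosses were 71.7% to 81.0% and 7.29% to 11.8%. Of PWD-only hotspots present in all 5 other PWD crosses, the hybrid held 1497 of 1683 (88.9%), and of those present in none of them 431 of 4925 (8.75%). Of CAST-only hotspots present in all 4 other CAST crosses it held 5670 of 5748 (98.6%), and of those in none 1060 of 4113 (25.8%). Of the shared hotspots in no other PWD cross, 461 of 480 (96.0%) were found in the hybrid. Of those in no other CAST cross, 237 of 259 (91.5%) were found. Either set may still hold hotspots that are in a cross of the other parent.

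The 4297 hybrid hotspots at neither parent's hotspots were mostly not near misses. Only 363 (8.45%) overlapped an interval of either parent. Of the 4297, 1353 (31.5%) were in at least 1 other CAST cross and no other PWD cross, 1105 (25.7%) in a PWD cross and no CAST cross, 353 (8.22%) in both kinds and 1486 (34.6%) in no other cross of either parent. The last set was weak, with a median hybrid percentile of 25.4 and 41 members among the 1000 strongest. The medians were 59.5, 50.9 and 59.9 for those in CAST crosses, in PWD crosses and in both, which had 137, 64 and 32 members among the 1000 strongest.

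By cross, the neither-parent hotspots were found at 21.5% (B6fXCASTm), 19.3% (C3HfXCASTm), 21.6% (CASTfXB6m) and 29.7% (CASTfXMOLm) in the CAST crosses. In the PWD crosses they were found at 21.3% (B6fXPWDm), 16.3% (PWDfX13Rm), 22.9% (PWDfXB6m), 22.5% (PWDfXC3Hm) and 23.2% (PWDfXMOLm). In the 9 crosses with neither parent the shares were 5.82% to 7.10% where MOL was a parent and 0.535% to 0.884% elsewhere. The crosses with a parent in common with the hybrid lie above all others. For comparison, hybrid hotspots of all classes were found at 50.3%, 46.3%, 52.1% and 54.1% in the 4 CAST crosses and at 25%, 17.3%, 28.6%, 27.9% and 26.2% in the 5 PWD crosses, in the same orders. In crosses without PWD or CAST they were found at 4.78% (B6fXMOLm), 5.83% (C3HfXMOLm), 4.66% (MOLfX13Rm) and 5.75% (MOLfXB6m). In those among B6, C3H and 13R they were found at 0.613% (13RfXB6m), 0.493% (B6fX13Rm), 0.657% (B6fXC3Hm), 0.744% (C3HfX13Rm) and 0.816% (C3HfXB6m).

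CAST crosses held a mean of 23.1% ± 4.59 (SD, n = 4) of the neither-parent hotspots, PWD crosses 21.2% ± 2.85 (SD, n = 5) and crosses with neither 3.26% ± 3.07 (SD, n = 9). The difference from the crosses with neither parent was 19.8 points for CAST crosses (adjusted p 0.0028, two-sided exact permutation test) and 17.97 points for PWD crosses (adjusted p 0.002, same test). Hybrid hotspots of all classes were found at 46.3% to 54.1% in CAST crosses, 17.3% to 28.6% in PWD crosses and 0.493% to 5.83% in the others. These differences are therefore not particular to the neither-parent class. Before adjustment the p-values of these 2 exact permutation tests were 0.0014 and 0.0005, the smallest that the permutations can give for these numbers of crosses. Both directions of a cross, which have the same autosomes, counted as separate units, so these p-values may be too small. CAST and PWD crosses differed by 1.82 points, which did not pass (adjusted p 0.54, exact permutation test). That last value depends on which hotspots are counted: with the strongest 5000 of each list it was 11.6 points with an adjusted p of 0.00794 (exact permutation test). Without CASTfXMOLm it was -0.413 points.

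**Figure D5:**
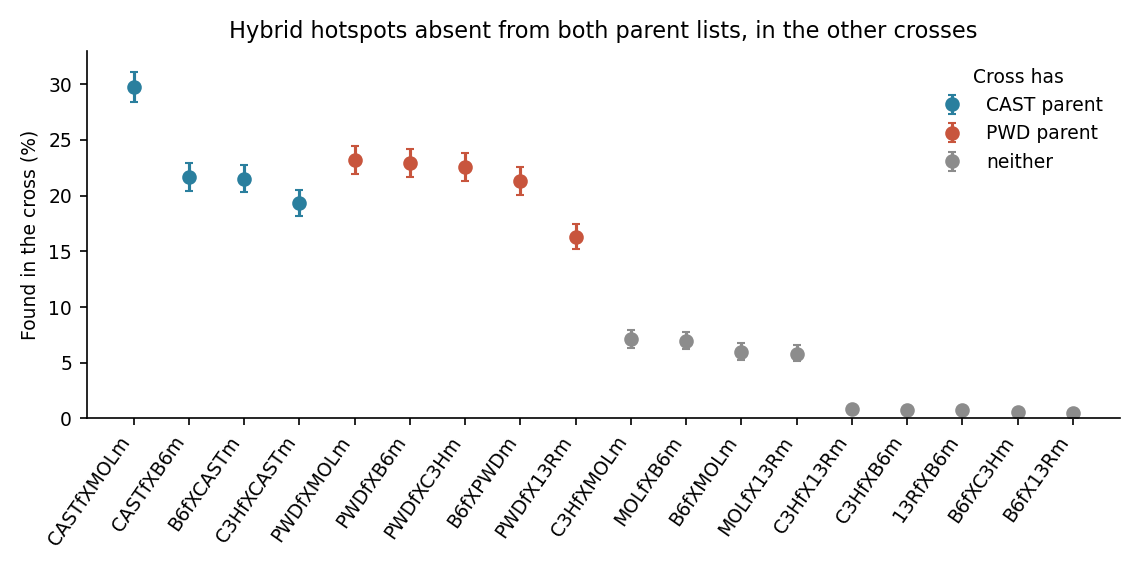
Percent of the 4297 PWDfXCASTm hotspots found in neither parent (vertical axis) that are found in each of the 18 other crosses, coloured by whether the cross has a CAST parent, a PWD parent or neither; bars are exact 95% intervals for counting error. The CAST and PWD crosses lie between 16.3% and 29.7%, the crosses with a MOL parent only between 5.82% and 7.10%, and the others below 1%.

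Among them, the strongest lay inside Smap1, a GTPase-activating protein of the Arf family, at chr1:23879141-23884472 and rank 3 in the hybrid. It ranked 13 in B6fXCASTm, 12 in C3HfXCASTm, 49 in CASTfXB6m and 1130 in CASTfXMOLm, and was in 4 PWD crosses at ranks 4606 to 9171, but no centre of the CAST list lay within 36727 bp. The next, near Arglu1 at chr8:8881751-8885852 and rank 5, was found among the other crosses only in CASTfXMOLm, at rank 8004. The third, near Prickle1, a planar cell polarity gene, at chr15:93877193-93881084 and rank 6, was in all 5 other PWD crosses, at ranks 30 to 89 in 4 of them and 2502 in PWDfX13Rm. It was in no other CAST cross.

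Some single-parent hotspots of the hybrid were also found where that parent is absent. Of the 137 PWD-only hotspots among the hybrid's 1000 strongest, 40 (29.2%, interval 21.7% to 37.6%) were in at least 1 of the 3 crosses of CAST with B6 or C3H, and 1 (0.730%) in at least 1 of 5 crosses among B6, C3H and 13R. Over all 3514 PWD-only hotspots the shares were 6.00% and 1.68%. Of the 402 CAST-only hotspots among the 1000 strongest, 77 (19.2%, interval 15.4% to 23.3%) were in at least 1 of 4 crosses of PWD with B6, C3H or 13R, and 7 (1.74%) in the same 5 crosses. Over all 8868 CAST-only hotspots the shares were 5.81% and 1.39%. A class therefore says which inbred list holds the hotspot, not which parent's allele marks it, which was not tested. The PWD-only hotspots among the hybrid's 1000 strongest had a median PWD percentile of 75.9 and 35 of 137 were under percentile 50, while the CAST-only ones had a median CAST percentile of 94.0 and 59 of 402 were under 50.

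Hotspots of the hybrid lay away from transcription starts. On the 18 autosomes with start windows in the tables used, 1.15% of hybrid hotspots had their centre within 1000 bp of a start, with 1.05% for sites of both parents, 1.10% for PWD only, 1.10% for CAST only and 1.34% for neither. In the Prdm9 knockout list it was 29.6%. PWD-only hotspots that the hybrid lacks lay near a start in 2.27% of cases (1.96% to 2.62%), against 1.15% (0.820% to 1.57%) for those found, and for CAST-only hotspots the values were 1.28% and 1.07%. The 2 intervals for PWD do not overlap, but they cover counting error only and have no replicate check. Over the whole PWD list the share near a start was 1.83%. The PWD-only hotspots not found were also weaker, with a median PWD percentile over all autosomes of 38.7 against 76.2 for those found. The part of strength in this difference was not tested. Of all hybrid hotspots 53.8% lay inside a protein-coding gene.

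A list of 51 genes of meiotic recombination and the chromosome axis, 49 of them matched, gives the hybrid's hotspots at the genes that act on breaks. In the hybrid 21 of 49 (42.9%) had a hotspot inside or within 1000 bp of an end, against 27.5% of all genes. The numbers were 20 (40.8%, against 22.0%) in PWD and 18 (36.7%, against 22.9%) in CAST. The listed genes are longer, with a median span of 36181 bp against 17490 bp, and the part of length in these shares was not tested. Their 29 hybrid hotspots were 10 CAST only (34.5%), 7 PWD only (24.1%), 5 of both (17.2%) and 7 of neither (24.1%). Over all hybrid hotspots these shares were 48.5%, 19.2%, 8.71% and 23.5%, and 29 hotspots are too few to compare with them.

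At Hormad2, an axis protein that marks unsynapsed chromosomes, 2 hotspots of both parents ranked 226 and 639 in the hybrid. At Hsf2bp, a binding partner of BRCA2, a hotspot of both parents ranked 494 (chr17:31981709-31986494). At Mlh3, a mismatch repair protein of crossover maturation, the PWD-only hotspot of rank 81 was not found in the hybrid, while a CAST-only hotspot at chr12:85245262-85248999 ranked 988 there. At Rad21l, a meiotic cohesin subunit, a hotspot of neither parent ranked 1851. At Ankrd31, a partner of the break machinery, a PWD-only hotspot of rank 1727 in PWD was not found in the hybrid. Sycp3, a component of the axis, was chosen after its values were seen: 3 shared hotspots lie inside it in PWD, at ranks 3877, 5927 and 4056, and none was found in the hybrid.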

How the data were processed

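The deposited files are lists of hotspots, 1 per strain or cross direction, each with a chromosome, start, end and a strength score made by the authors. How the score was scaled, which filters were set and whether animals were pooled is not given in the sources used here. Genome build mm10 and, among the tools, CASAVA 1.8 and MACS2 2.0.10 are named per the submitters' processing notes. The 5 input samples have no list and were not used. A few scores lie at or under 0 (1 in the hybrid, 7 in PWD, 3 in CAST on the autosomes), so the deposited score was used only as rank, percentile or share of strength within a list, with negative scores taken as 0 in sums.

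Each sample's group came from the strains of its mother and father in the labels. Hotspots were matched by centres under 400 bp apart on chromosomes 1 to 19, and each list was counted from its own side, so 1603 shared parental hotspots correspond to 1591 hybrid hotspots. Centres were taken from start and end as BED positions. Shares have exact Clopper-Pearson intervals at 95%. The 4 tests over crosses are two-sided exact permutation tests with Benjamini-Hochberg adjustment at a threshold of 0.05, run with scipy 1.17.1 under Python 3.11.15, numpy 2.4.6 and pandas 2.3.3. Scripts were tested on simulated lists. No strain or cross direction has a replicate, and p-values measure the spread between crosses, each 1 library. Both directions of a cross, which have the same autosomes, were counted as separate crosses.

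Named hotspots are the 3 strongest of each hybrid class, the 3 strongest per parental class without a hybrid hotspot, the strongest shared hotspot of each parent, and up to 8 at genes of the meiotic list. The gene of a hotspot is the protein-coding gene of the RefSeq GRCm38.p6 table that holds its centre, or else the nearest. The comparison, the gene list and the members were chosen with earlier results of these data known. Other match rules, strength limits, chromosome X and leaving out crosses were tried as alternatives.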

Additional observations from a re-analysis of the deposited data

Results flagged for a closer look

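Among the 5 other crosses with a PWD parent, PWDfX13Rm held 16.3% of the hybrid's neither-parent hotspots and lay far from the other 4, which held 21.3% to 23.2%. Its gap to the next value was 0.729 of the range, just past the critical value of 0.71 for 5 crosses. It was the only value past that limit among 6 groups of crosses examined, and chance marks about 1 in 20 such groups. For CASTfXMOLm among the 4 CAST crosses the gap was larger, 0.777 of the range, but the critical value for 4 crosses is 0.829. Among the PWD crosses, PWDfX13Rm also held the smallest shares of PWD-only (16.7%) and shared (32.0%) hotspots. Its list of 12945 autosomal hotspots was about as long as that of B6fXPWDm, with 12918. The part of any cause in this was not tested.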

How the results depend on the processing

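In each setting, shares found are given for shared hotspots as placed in PWD and in CAST, then PWD only and CAST only. Shares of hybrid hotspots and median hybrid percentiles are given for both parents, PWD only, CAST only and neither, where they moved. With centres under 200 bp apart, 95.3%, 96.5%, 27.9% and 66.7% were found, the hybrid's shares were 7.79%, 18.1%, 46.7% and 27.4%, and the medians 41.1 (PWD only), 51.4 (CAST only) and 42.2 (neither). Under 800 bp, both parents made up 9.13% and neither 22.5%. With any overlap, 31.2% of PWD-only and 71.6% of CAST-only hotspots were found, and both, PWD only and neither made up 10.3%, 19.8% and 21.5%. With a reciprocal overlap of 50%, the shares found were 91.7%, 92.0%, 25.1% and 67.3%, the hybrid's shares 7.53%, 16.4%, 47.1% and 29.0%, and the medians 73.7 (both), 47.4 (PWD only) and 41.2 (neither). The difference between CAST and PWD crosses in neither-parent hotspots was then -2.25 points (adjusted p 0.365, exact permutation test).

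With the strongest 50% of each list, the shares found were 97.0%, 97.0%, 21.5% and 66.4%, the hybrid's shares 7.07%, 14.2%, 47.0% and 31.7%, and the medians 73.9 (both), 49.3 (CAST only) and 48.3 (neither); the CAST against PWD difference was 4.83 points (adjusted p 0.0317, exact permutation test). With the strongest 5000, the shares found were 91.4%, 91.7%, 12.7% and 48.8%, the hybrid's shares 7.62%, 11.6%, 44.7% and 36.1%, and the medians 63.9, 43.6, 46.1 and 52.1; that difference was 11.6 points (adjusted p 0.00794). On X alone, the shares found were 93.3%, 93.3%, 26.1% and 55.3%, the hybrid's shares 12.3%, 28.4%, 45.8% and 13.5%, and the medians 75.1, 33.9, 56.0 and 38.0.

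The 4 settings of this paragraph were chosen after seeing the data. With the hybrid list reduced to the length of the PWD list, the shares found were 95.1%, 95.1%, 19.8% and 52.7%, and the hybrid's shares 11.5%, 17.3%, 49.4% and 21.9%. With parental hotspots also found in another cross of that parent, 98.7%, 99.0%, 44.5% and 91.4% were found. Without MOL crosses the difference in shared hotspots was 21.2 points (adjusted p 0.0762, exact permutation test). With cross lists reduced to their strongest 12000, that difference was 22.3 points.

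Leaving out each cross in turn, the 4 differences ranged from 17.6 to 21.04 points (CAST against no parent), 17.5 to 19.2 (PWD against no parent), -0.413 to 3.06 (CAST against PWD, reversed without CASTfXMOLm) and 17.8 to 25.4 (shared hotspots). In every setting the shared class had the largest share found and the PWD-only class the smallest. The cause of each change was not tested, except that shorter lists hold fewer hotspots by construction. No paired analysis was possible because each strain or cross direction has 1 library. Depth is unknown, so whether a weak parental hotspot is absent from the hybrid or only not called cannot be told apart.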

Other observations

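The X chromosome of a PWDfXCASTm male comes from its PWD mother. Of the 806 X hotspots of the hybrid, 45.8% were CAST only, 28.4% PWD only, 12.3% at sites of both parents and 13.5% at neither. On the autosomes the same shares were 48.5%, 19.2%, 8.71% and 23.5%, so X had a larger share of PWD-only and a smaller share of neither-parent hotspots. The parental lists differ in the same direction, with 886 PWD-only and 671 CAST-only hotspots on X against 11898 and 12679 on the autosomes. CAST-only hotspots of X were found in 371 of 671 cases (55.3%), PWD-only ones in 231 of 886 (26.1%) and shared ones in 97 of 104 (93.3%). On the autosomes these shares were higher, at 70.1%, 29.7% and 97.9%. Percentiles on X were not set against those on the autosomes, since a male has 1 copy of X.

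Among autosomes, the share of PWD-only hotspots found ran from 22.1% on chromosome 5 to 37.3% on chromosome 18, and that of CAST-only hotspots from 63.8% on chromosome 7 to 76.4% on chromosome 18. Neither-parent hotspots made up 20.7% of the hybrid's hotspots on chromosome 2 and 26.2% on chromosome 8. Sites of both parents were scarcest on chromosome 17 (5.90%) and most frequent on chromosome 19 (10.3%). With each autosome cut into 3 parts of equal length, the part farthest from the centromere held 39.7% of the neither-parent, 38.2% of the CAST-only, 36.1% of the PWD-only and 34.9% of the hotspots of both parents. In the parental lists the same part held similar shares, 37.1% of the CAST-only, 35.7% of the PWD-only and 35.1% of the shared hotspots. CAST-only hotspots were found at 67.7% in the part nearest the centromere and 72.1% in the farthest.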
